A study of Mus musculus with 20 samples.

Results

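The proteasome subunit genes are described here in mouse abdominal aorta as 42 genes of 14570, chosen by symbol alone: Psma, Psmb, Psmc, Psmd, Psme or Psmf followed by a digit, without the immunoproteasome genes Psmb8 and Psmb9. A gene entered if at least 1 of its Ensembl transcripts was listed both in the table of the wild-type (WT) groups and in that of the KO group given angiotensin II (Ang II). These genes had 136 such transcripts of 30960, and 41 of the 42 genes had a mean of at least 1 FPKM (a level of RNA corrected for transcript length and for library depth), the minimum for a test. The exception was Psmc3ip, a meiotic recombination factor that carries a matching symbol and is no proteasome subunit. It lay between 0.0773 and 1.15 FPKM. Another 6 symbols fitted the pattern in the annotation and had no shared transcript: the testis subunit Psma8, the thymus subunit Psmb11, and the pseudogenes Psmb5-ps, Psmb6-ps, Psmb6-ps2 and Psmb7-ps2.

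The series measured RNA by sequencing in 20 abdominal aortas, 5 in each of 4 groups. The groups were WT mice infused with saline, WT mice given Ang II (500 ng/kg/min), mice labelled KO infused with saline, and mice labelled KO given that dose of Ang II. Ang II constricts arteries and so raises blood pressure. The kinase DAPK1, which calcium and calmodulin activate, is named in the title of the series. The labels do not state the deleted allele, the cells it is deleted in, the strain, the age or the length of infusion. KO saline libraries carry KO in their title and genotype but WT in their description, and were taken as KO. The KO saline table lists few transcripts, so comparisons of genes were made among both WT groups and KO Ang II. Animals are named by the library's title. Values by library are given in this order: animals WTNS_369, WTNS_373, WTNS_523, WTNS_547 and WTNS_550 for WT saline, WTAng_II519, WTAng_II536, WTAngII568, WTAngII580 and WTAngII581 for WT Ang II, and KOAng_II402, KOAngII537, KOAngII560, KOAngII612 and KOAngII628 for KO Ang II.

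The proteasome is the cell's main protease for proteins tagged with ubiquitin. Its 20S core is a barrel of alpha rings, which gate the entry, and beta rings, which hold the catalytic sites inside. The 19S cap recognises the ubiquitin tag, removes it, and unfolds the protein with a ring of ATPases, while other activators can open the barrel without ubiquitin. Subunits are used in fixed proportions, and many of their genes share control by the transcription factor Nfe2l1, which binds antioxidant response elements. In arteries the proteasome is known for its part in the turnover of contractile and signalling proteins of smooth muscle.

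Because this shared control acts at promoters, the RefSeq promoter table (GRCm38.p6, 250 bases before to 50 after each start) was searched on both strands for the antioxidant response element core TGACNNNGC and the CCAAT box. It held 36 of the 42 genes, and not Psmb1, Psmb2, Psmb7, Psmc3, Psmd3 or Psmd7. TGACNNNGC was found in 6 of the 36 genes (16.7%), against 14.0% of all 27025 symbols and 12.4% of all 32851 promoters. CCAAT was found in 13 (36.1%), Psmc3ip among them, against 41.1% of symbols and 37.4% of promoters. Both shares lay near the background. In Psmb5, Psmb6 and Psmd9 the first motif lay on the strand of the gene close before the start, at bases -47 to -39, -9 to -1 and -31 to -23, counted back from -1 just before the start. Psmd12 and Psmc6 carried it further upstream and Psme4 across the start. The 100 bases before the start are shown for the first 3, and the 170 bases before that of Psmd14, the gene with the smallest p between the Ang II groups, which held no TGACNNNGC. Capitals mark TGACNNNGC, or the CCAAT box, which reads ATTGG on this strand in Psmd14.
Psmb5, chr14:54617996-54618095, minus strand: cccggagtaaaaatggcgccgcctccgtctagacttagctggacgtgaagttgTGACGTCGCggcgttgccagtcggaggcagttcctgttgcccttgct
Psmb6, chr11:70525257-70525356, plus strand: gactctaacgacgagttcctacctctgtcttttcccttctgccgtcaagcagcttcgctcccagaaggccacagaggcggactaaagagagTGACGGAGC
Psmd9, chr5:123228090-123228189, plus strand: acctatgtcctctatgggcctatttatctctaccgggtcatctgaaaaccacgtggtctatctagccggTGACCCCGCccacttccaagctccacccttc
Psmd14, chr2:61711524-61711693, plus strand: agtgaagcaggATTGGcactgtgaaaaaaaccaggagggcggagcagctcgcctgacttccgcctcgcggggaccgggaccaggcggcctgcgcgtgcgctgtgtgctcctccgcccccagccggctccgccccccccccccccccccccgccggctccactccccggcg

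Each library held 59.0 to 74.9 megareads, a depth recovered from the steps between low values. Smooth muscle markers summed to 5562 to 14530 FPKM over 8 genes in the 15 libraries, so the defining markers of the labelled tissue were present in each. Other tissue varied from animal to animal: the 7 brown adipocyte markers summed to 141.1 to 3116 FPKM, the 8 sympathetic neuron markers to 0.0800 to 827.3 FPKM and the skeletal muscle markers (7 of 10 listed) to 1.54 to 193.7 FPKM. Of 8 intestinal markers 6 were listed, and their sum was 0 in all WT saline libraries and in 3 of the WT Ang II libraries (WTAngII568, WTAng_II536 and WTAng_II519), 15.03 and 15.93 FPKM in WT Ang II animals WTAngII581 and WTAngII580, and 19.02 to 46.2 FPKM in KO Ang II. Only 1 of the 6 T and NK cell markers was listed, at 0.0872 to 0.946 FPKM. Dapk1 stood at 15.4, 9.48, 10.1, 12.6 and 12.9 FPKM in WT saline, 9.16, 19.9, 3.96, 9.504 and 11.1 FPKM in WT Ang II, and 4.51, 9.46, 0.514, 6.51 and 2.73 FPKM in KO Ang II. The KO Ang II libraries had a lower mean, but 3 of the 5 (KOAng_II402, KOAngII537 and KOAngII612) lay inside the range of WT Ang II. The difference to WT Ang II was -1.15 on the log2(FPKM + 1) scale (SE 0.45, limma adjusted p = 0.674). Against WT saline it was -1.44 (SE 0.45, limma adjusted p = 0.438). Every KO Ang II library lay below every WT saline library there, the nearest at 9.46 and 9.48 FPKM. Of all 12536 genes tested 1.54% had no overlap in that comparison.

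Proteasome genes were among the more abundant transcripts of the aorta. Of the 41 tested genes, 33 lay at or above the 80th percentile of the 12536 genes tested, and their median level was 39.8 FPKM against 6.77 FPKM over all genes. They also held steady between animals. The SD within a group, on the log2(FPKM + 1) scale, had a median of 0.168 over the 41 genes and 0.356 over all genes tested, and for 38 of the 41 it was below the latter. Over the 7141 genes within the range of levels of these genes, Psme2b left aside, the median was 0.325, but the median level of that set was 11.9 FPKM, so it is not matched in level. Summed over all 42 genes, Psmc3ip included, the level was 1651 ± 107.5 FPKM (SD, n = 5) in WT saline. It was 1604 ± 36.55 FPKM (SD, n = 5) in WT Ang II and 1713 ± 142.2 FPKM (SD, n = 5) in KO Ang II. These ranges overlapped, at 1523 to 1782, 1574 to 1664 and 1550 to 1874 FPKM. In a bulk sample a change in the number of cells of a type and a change in RNA per cell cannot be told apart.

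**Figure D1:**
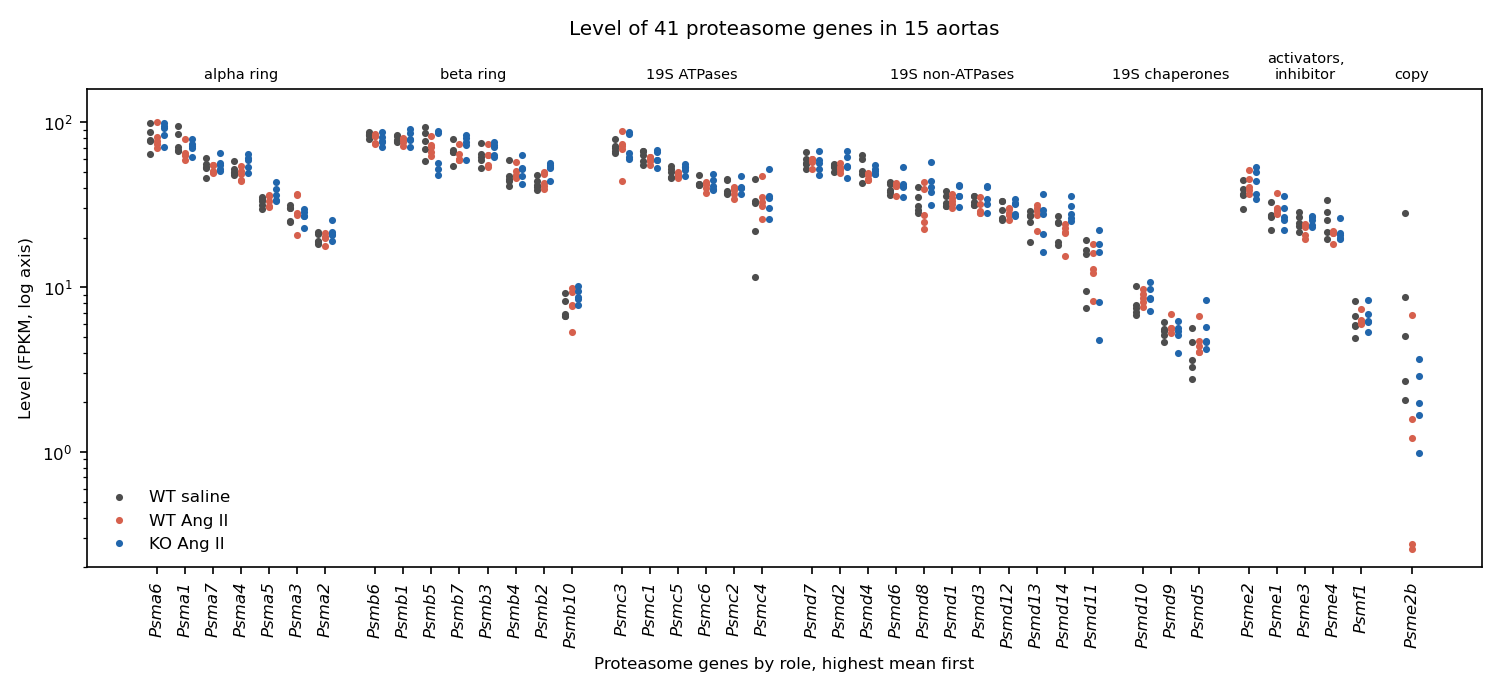
Level of each of the 41 tested proteasome genes (FPKM, log axis) in 15 aortas, grouped by role and coloured by group; each point is 1 animal. The alpha ring, beta ring and 19S genes lie between 13.8 and 83.2 FPKM on average, apart from Psmb10 at 8.16, while the 19S chaperones, Psmf1 and Psme2b lie below 10.

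No proteasome gene passed the test in any of the 3 comparisons. For WT Ang II against WT saline 0 of 41 passed at an adjusted p of 0.05 (0% of the 12536 genes tested did), and 1, Psme2b, had an unadjusted p under 0.05 (4.95% of all genes). Differences were positive in 16 of 41 (53.9% of all genes), no gene had groups without overlap (1.03% of all genes), and the median difference was -0.020 against 0.022 over all genes. Between KO Ang II and WT Ang II 0 of 41 passed (0% of all genes), and 4 (Psmd14, Psma4, Psmb2 and Psmd8) had an unadjusted p under 0.05 (7.12% of all genes). Differences were positive in 33 of 41 (47.5% of all genes), 1 gene, Psmd14, had groups without overlap (0.885% of all genes), and the median was 0.094 against -0.015 over all genes. Between KO Ang II and WT saline 0 of 41 passed (0.0877% of all genes, or 11), 2 (Psmb2 and Psmd14) had an unadjusted p under 0.05 (7.47% of all genes), 29 of 41 were positive (52.7% of all genes; 24 with libraries scaled to an equal median of all genes) and none had groups without overlap (1.54% of all genes). The median was 0.060 against 0.016 over all genes. Among the 11 genes that passed for KO Ang II against WT saline were 5 of the 6 tested intestinal markers. These comparisons share groups, and genes of a family that move together in an animal are not independent, so the counts of positive differences carry no test. Markers of the cell types in the aorta and around it also differed between the Ang II groups, with none past the limma test. Differences were positive in 1 of 8 smooth muscle markers (median -0.44) and 0 of 6 fibroblast markers (-0.32), and in 7 of 7 brown adipocyte (1.0), 6 of 6 adipocyte (0.38), 8 of 8 sympathetic neuron (2.32) and 6 of 6 intestinal markers (1.79). They were positive in 3 of 8 macrophage (-0.12), 2 of 6 endothelial (-0.16) and 1 of 6 skeletal muscle markers (-0.72). The 7 libraries with intestinal transcripts were WTAngII580, WTAngII581 and all of KO Ang II. Within them 33 of the 41 proteasome genes were positive between the Ang II groups (median 0.071). Intestinal sums were still lower in the WT pair, 15.93 and 15.03 FPKM, than in KO Ang II, 19.02 to 46.2 FPKM. With 3 marker means as covariates 35 genes were positive (median 0.12). The share over all genes was not worked out for either fit, so nothing is concluded from these counts. The part of smooth muscle and fibroblast content was not tested.

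**Figure D2:**
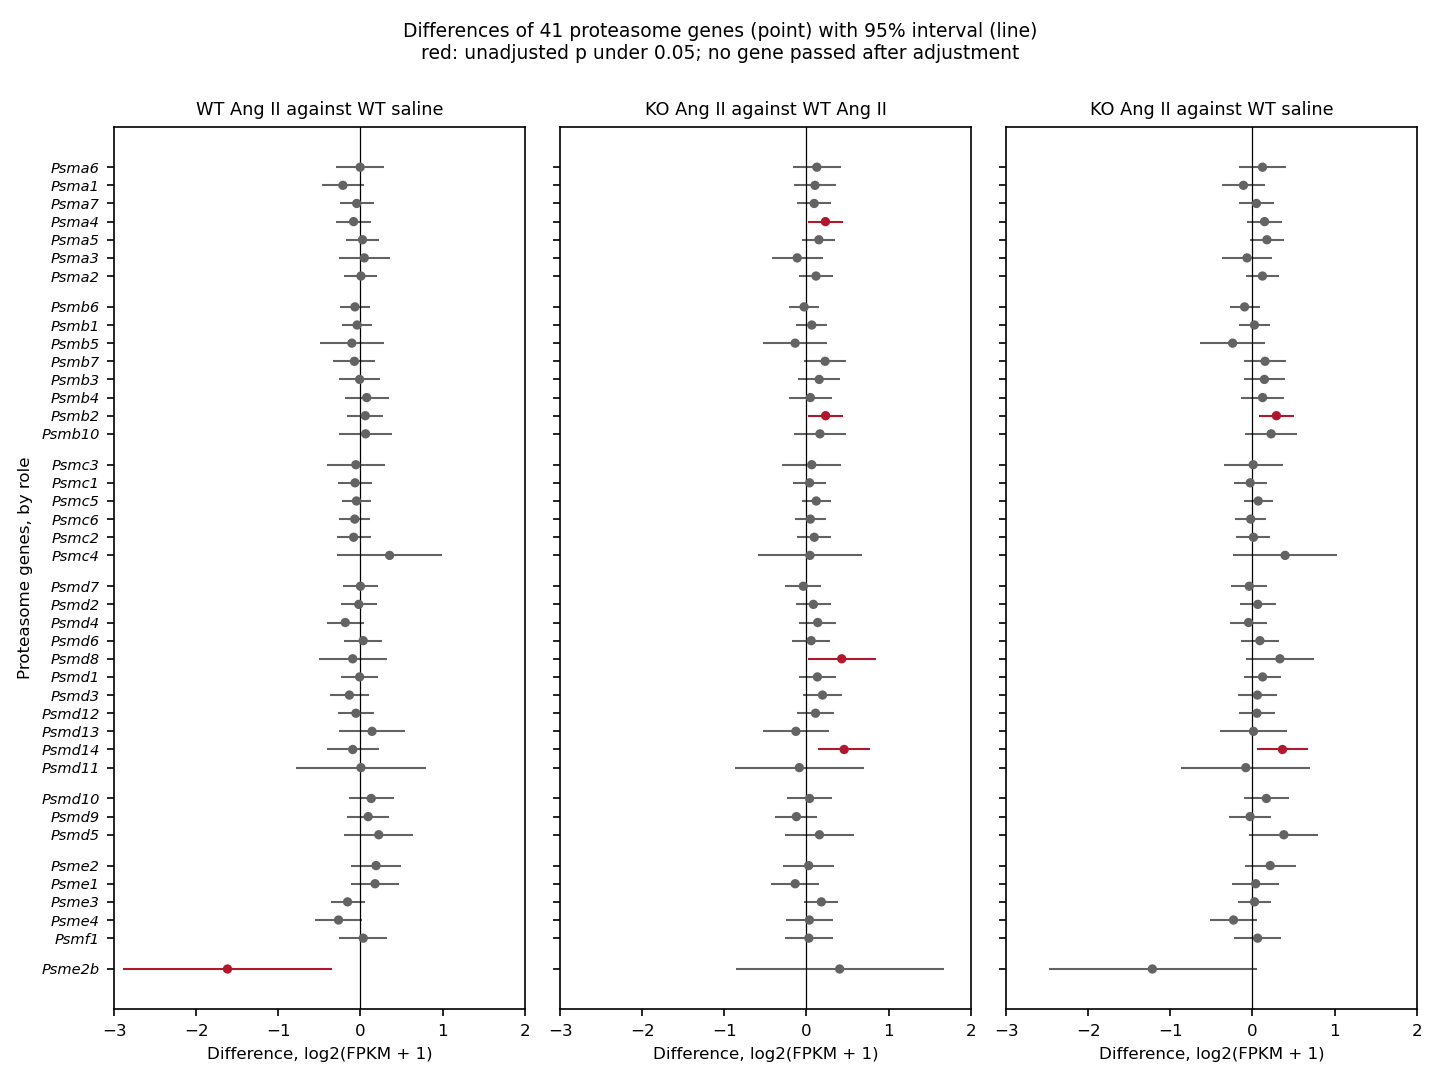
Difference of each of the 41 proteasome genes on the log2(FPKM + 1) scale (point) with its 95% interval (line) in 3 comparisons; red marks an unadjusted p under 0.05. For KO Ang II against WT Ang II 33 of the 41 points lie to the right of 0, and Psmd14 lies farthest, at 0.46; Psme2b lies farthest to the left in the other panels.

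The intervals show which sizes these data leave room for. Between the Ang II groups the 95% interval lay within 0.5 on either side of 0 in 33 of the 41 genes and within 1 in 40; for WT Ang II against WT saline this held for 34 and 40, and for KO Ang II against WT saline for 30 and 39. Over all genes tested the interval lay within 0.5 in 3795 of 12536 for the Ang II groups. The median interval reached 0.26 to either side of the estimate in the family and 0.47 over all genes.

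Within the alpha ring (Psma1 to Psma7) mean levels ran from 20.4 FPKM for Psma2 to 83.2 FPKM for Psma6. Psma6 stood at 98.6, 87.0, 76.8, 64.2 and 78.3 FPKM in WT saline, 69.9, 74.0, 76.8, 100.3 and 81.9 FPKM in WT Ang II, and 94.4, 98.5, 71.2, 83.2 and 92.1 FPKM in KO Ang II. Psma2 stood at 19.1, 21.6, 21.1, 18.2 and 18.8 FPKM in WT saline, 19.8, 17.8, 21.2, 20.1 and 20.1 FPKM in WT Ang II, and 21.6, 20.8, 19.1, 25.5 and 20.95 FPKM in KO Ang II. In both genes the 3 groups overlapped. Psma1 differed most with Ang II in WT, at 84.9, 95.4, 68.3, 67.4 and 70.5 FPKM in WT saline and 59.2, 63.7, 65.4, 78.9 and 63.6 FPKM in WT Ang II, with 73.9, 79.2, 61.3, 69.7 and 71.4 FPKM in KO Ang II. The low animals of WT saline reached into the range of WT Ang II, and the difference was -0.21 (log2 scale, SE 0.12, limma adjusted p = 0.938). Psma4, at chr9:54950790-54958030, was the alpha ring gene that differed most between the Ang II groups. It stood at 49.7, 58.5, 52.0, 49.1 and 48.1 FPKM in WT saline, 50.8, 44.8, 48.9, 54.0 and 44.2 FPKM in WT Ang II, and 58.7, 60.5, 49.5, 63.9 and 53.3 FPKM in KO Ang II. KO Ang II animals KOAngII560 and KOAngII628 lay inside the WT Ang II range, and the difference was 0.23 (log2 scale, SE 0.099, limma adjusted p = 0.674). Psma3, Psma5 and Psma7 lay between, at 28.5, 34.5 and 54.0 FPKM on average.

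In the beta ring, the catalytic genes Psmb5, Psmb6 and Psmb7 (chymotrypsin-like, caspase-like and trypsin-like activity) were highly expressed, as was the structural Psmb1 with a mean of 79.4 FPKM. Psmb6 had the highest mean of the class, 80.7 FPKM, and a narrow spread: 87.3, 84.0, 84.5, 84.0 and 78.8 FPKM in WT saline, 85.3, 82.3, 82.9, 74.0 and 75.2 FPKM in WT Ang II, and 75.7, 80.9, 76.9, 87.5 and 70.9 FPKM in KO Ang II. Psmb5 stood at 86.3, 93.8, 58.7, 68.7 and 77.2 FPKM in WT saline, 71.2, 62.6, 72.4, 82.3 and 65.7 FPKM in WT Ang II, and 88.3, 86.3, 51.8, 47.7 and 56.9 FPKM in KO Ang II. KO Ang II animals KOAngII560, KOAngII612 and KOAngII628 had the 3 lowest Psmb5 values of all 15 libraries, while KOAng_II402 and KOAngII537 were among the 4 highest. Psmb7 stood at 66.4, 79.4, 66.2, 54.4 and 67.8 FPKM in WT saline, 59.4, 59.8, 59.3, 73.7 and 64.0 FPKM in WT Ang II, and 83.4, 80.3, 59.5, 75.6 and 73.2 FPKM in KO Ang II. Relative to WT Ang II, KO Ang II differed by -0.14 in Psmb5 (SE 0.18), -0.029 in Psmb6 (SE 0.086) and 0.23 in Psmb7 (SE 0.12) on the log2 scale, with limma adjusted p of 0.839, 0.937 and 0.674. None of these differences passed the test.

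Psmb10, the interferon-induced subunit that replaces Psmb7, was the lowest beta ring gene with a mean of 8.16 FPKM. It stood at 6.67, 8.20, 9.25, 6.65 and 6.89 FPKM in WT saline, 9.37, 9.91, 7.64, 7.75 and 5.35 FPKM in WT Ang II, and 8.49, 10.2, 9.54, 7.81 and 8.70 FPKM in KO Ang II. Per Psmb7 its level was 0.114 ± 0.017 (SD, n = 5) in WT saline, 0.128 ± 0.035 (SD, n = 5) in WT Ang II and 0.122 ± 0.024 (SD, n = 5) in KO Ang II, with overlapping ranges. The other inducible subunits were also far below their partners: Psmb8 per Psmb5 was 0.106 ± 0.037 (SD, n = 5), 0.151 ± 0.061 (SD, n = 5) and 0.152 ± 0.040 (SD, n = 5) in the same order of groups. Psmb9 per Psmb6 was 0.034 ± 0.011 (SD, n = 5), 0.057 ± 0.023 (SD, n = 5) and 0.044 ± 0.014 (SD, n = 5). WT Ang II animal WTAng_II536 had the highest value in all 3 ratios. Psmb3 and Psmb4, structural subunits, had means of 64.3 and 49.6 FPKM.

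Psmb2, a structural beta ring subunit at chr4:126677630-126709714, had the smallest p of the family for KO Ang II against WT saline. It stood at 44.1, 47.9, 41.7, 38.6 and 40.6 FPKM in WT saline, 39.5, 49.7, 43.1, 48.7 and 41.3 FPKM in WT Ang II, and 53.5, 55.1, 43.8, 56.6 and 53.0 FPKM in KO Ang II. All KO Ang II animals but KOAngII560 lay above every WT animal. This order is that of the sum over 3 models, of which the coding model took 52.7% to 94.3%. It need not hold for the coding model alone. The difference to WT saline was 0.29 (log2 scale, SE 0.10, limma adjusted p = 0.511) and that to WT Ang II 0.23 (SE 0.10, limma adjusted p = 0.674).

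The ATPases of the 19S cap form the ring that unfolds substrates. Psmc1, Psmc2 and Psmc6 had means of 60.6, 39.8 and 42.2 FPKM, Psmc5 ranged from 46.04 to 55.63 FPKM, and Psmc3 had the highest mean, 70.6 FPKM. Psmc3 stood at 69.6, 65.4, 67.3, 71.4 and 79.3 FPKM in WT saline, 88.0, 73.9, 71.8, 44.3 and 68.8 FPKM in WT Ang II, and 65.2, 59.9, 85.4, 87.4 and 61.3 FPKM in KO Ang II. Psmc4 had the lowest mean of the ATPases, 33.1 FPKM, and the widest spread. It stood at 45.1, 33.4, 32.4, 21.8 and 11.4 FPKM in WT saline, 25.95, 35.4, 47.5, 30.9 and 32.9 FPKM in WT Ang II, and 34.9, 35.9, 26.1, 51.9 and 30.4 FPKM in KO Ang II. Psmc4 had the most positive difference of the family with Ang II in WT, 0.36 (log2 scale, SE 0.30, limma adjusted p = 0.938), and for KO Ang II against WT saline, 0.40 (SE 0.30, limma adjusted p = 0.84). WT saline animal WTNS_550, the lowest at 11.4 FPKM, enters both. Between the Ang II groups all 6 ATPases had a positive difference, between 0.038 and 0.12, and none passed the test.

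Among the 11 non-ATPase subunits of the 19S cap, Psmd7 had the highest mean, 57.4 FPKM, and Psmd11, a lid subunit, the lowest, 13.8 FPKM. Psmd7, the lid partner of the deubiquitinase Psmd14, stood at 65.6, 51.8, 55.5, 59.6 and 57.0 FPKM in WT saline, 59.8, 57.2, 60.2, 52.3 and 59.5 FPKM in WT Ang II, and 52.2, 58.9, 56.5, 66.7 and 48.1 FPKM in KO Ang II. Psmd11 stood at 16.9, 9.48, 15.8, 19.3 and 7.51 FPKM in WT saline, 18.3, 12.9, 16.0, 12.2 and 8.18 FPKM in WT Ang II, and 16.3, 18.4, 4.75, 22.2 and 8.15 FPKM in KO Ang II. Psmd11 varied within every group, and its SD within a group of 0.63 on the log2 scale was the largest of the family after Psme2b. The scaffold subunits Psmd1 and Psmd2 had means of 34.8 and 54.3 FPKM, the ubiquitin receptor Psmd4 50.1 FPKM, and the lid subunits Psmd3, Psmd6, Psmd12 and Psmd13 had 33.0, 40.8, 29.5 and 26.5 FPKM.

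Psmd14, at chr2:61711694-61800376, is the metalloprotease of the lid that cuts ubiquitin chains off substrates before they enter the core. It stood at 18.8, 24.4, 26.9, 24.7 and 18.1 FPKM in WT saline, 15.4, 23.0, 21.3, 21.7 and 24.0 FPKM in WT Ang II, and 27.9, 31.1, 25.3, 35.9 and 26.2 FPKM in KO Ang II. It was the only gene of the family whose Ang II groups did not overlap, since the lowest KO Ang II animal, KOAngII560, lay above the highest WT Ang II animal, WTAngII581. The difference was 0.46 (log2 scale, SE 0.15, 95% interval 0.15 to 0.77), with a limma adjusted p of 0.674. Against WT saline it was 0.37 (SE 0.15, limma adjusted p = 0.606), and animal WTNS_523 of WT saline overlapped with KO Ang II. Other tissue differed between these groups too: intestinal transcripts were present in all 5 KO Ang II and in 2 WT Ang II libraries, and the sympathetic neuron sum was 0.0800 to 133.8 FPKM in WT Ang II and 3.55 to 827.3 FPKM in KO Ang II. Among the 7 libraries with intestinal transcripts the Psmd14 difference was 0.34, and with 3 marker means as covariates 0.36 (limma adjusted p = 0.927). Psmd8, a lid subunit at chr7:29174188-29180701, differed by 0.43 between the Ang II groups (SE 0.20, limma adjusted p = 0.674). It stood at 29.4, 35.3, 40.4, 28.3 and 31.1 FPKM in WT saline. In WT Ang II it stood at 24.7, 22.5, 27.5, 43.4 and 39.4 FPKM, and in KO Ang II at 43.9, 31.5, 40.3, 57.5 and 37.7 FPKM. WT Ang II animals WTAngII580 and WTAngII581, the pair with intestinal transcripts, were the highest of their group and within the range of KO Ang II. WT saline animals WTNS_373 and WTNS_523, without intestinal transcripts, also lay within that range. The part of intestinal tissue in the Psmd8 values was not tested. Against WT saline the KO Ang II difference was 0.33 (SE 0.20, limma adjusted p = 0.763).

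The 3 chaperones that assemble the 19S base and carry Psmd symbols were scarce. Psmd5, Psmd9 and Psmd10 had means of 4.77, 5.49 and 8.46 FPKM, and none of their 9 differences passed the test. Psmd9 shares 25.5% of its exon bases with the antisense lincRNA Gm26745, and whether counting used the strand is not given, so reads of the pair cannot be told apart.

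Of the activators, Psme1 and Psme2 form the interferon-induced cap that opens the core for short peptides, while Psme3 and Psme4 act mainly in the nucleus. Psme2 had the highest mean of the class, 41.2 FPKM, and stood at 36.6, 44.5, 39.4, 29.6 and 36.3 FPKM in WT saline, 40.3, 51.4, 38.8, 45.5 and 36.9 FPKM in WT Ang II, and 50.1, 53.5, 34.5, 36.7 and 43.8 FPKM in KO Ang II. Psme1 stood at 27.2, 32.7, 27.3, 22.2 and 26.6 FPKM in WT saline, 29.2, 37.3, 27.6, 30.0 and 29.9 FPKM in WT Ang II, and 30.4, 25.5, 35.8, 22.1 and 26.7 FPKM in KO Ang II. The ratio of Psme1 to Psme2, which are partners, ranged from 0.693 to 0.748 in WT saline and 0.660 to 0.810 in WT Ang II. In KO Ang II it ranged from 0.477 to 1.04, and animal KOAngII560 stood apart at 1.04. In that animal transcripts annotated as protein coding took 45.8% of the Psme1 level, the lowest share of the 15 libraries. For Psme2 they took 78.3% there. The ratio of the sums thus mixes coding and other models, and a ratio of the coding models alone was not worked out. Whether KOAngII560 or the group stands apart in the coding models is therefore not shown. Psme4 stood at 33.7, 19.6, 21.6, 28.4 and 25.6 FPKM in WT saline, 21.9, 18.3, 21.7, 21.4 and 21.2 FPKM in WT Ang II, and 19.5, 26.1, 19.9, 21.4 and 20.7 FPKM in KO Ang II. Its difference with Ang II in WT was -0.27 (log2 scale, SE 0.14, limma adjusted p = 0.938), and WT saline animals WTNS_373 and WTNS_523 lay inside the range of WT Ang II. Psme3 had a mean of 24.2 FPKM. The inhibitor Psmf1 was the lowest of the class and stood at 5.78, 4.92, 8.20, 6.64 and 5.93 FPKM in WT saline, 6.36, 6.07, 6.26, 5.97 and 7.33 FPKM in WT Ang II, and 6.89, 6.25, 8.40, 5.33 and 6.12 FPKM in KO Ang II.

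Psme2b, at chr11:48945354-48946190, is a copy of Psme2 and was set apart, because reads of near-identical genes can be split between them. It stood at 2.07, 28.4, 8.67, 2.69 and 5.04 FPKM in WT saline, 1.21, 1.58, 6.75, 0.257 and 0.276 FPKM in WT Ang II, and 0.988, 3.66, 1.99, 2.89 and 1.66 FPKM in KO Ang II. WT saline animal WTNS_373 stood far above every other library. The difference of WT Ang II to WT saline, -1.62 (log2 scale, SE 0.59, limma adjusted p = 0.898), had the smallest p of the family in that comparison and the largest size in any.

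The animals of KO Ang II were not alike across the family. Each gene was compared with its own median over the 15 libraries: 30, 34 and 31 of the 41 genes lay above it in KO Ang II animals KOAng_II402, KOAngII537 and KOAngII612, but 13 and 11 in animals KOAngII560 and KOAngII628. The first 3 thus stood high across the family while the other 2 stood within the range of the WT animals, where this count ran from 11 (animals WTNS_550 and WTAngII581) to 24 (animal WTNS_373). The same count over all genes tested, as a percentage, was 42.5, 51.0 and 46.5 in animals KOAng_II402, KOAngII537 and KOAngII612 and 54.4 and 33.7 in KOAngII560 and KOAngII628. Without animal KOAngII612 the median difference of the family was 0.056 against WT Ang II and 0.0068 against WT saline, and 28 and 25 of 41 genes were positive.

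**Figure D3:**
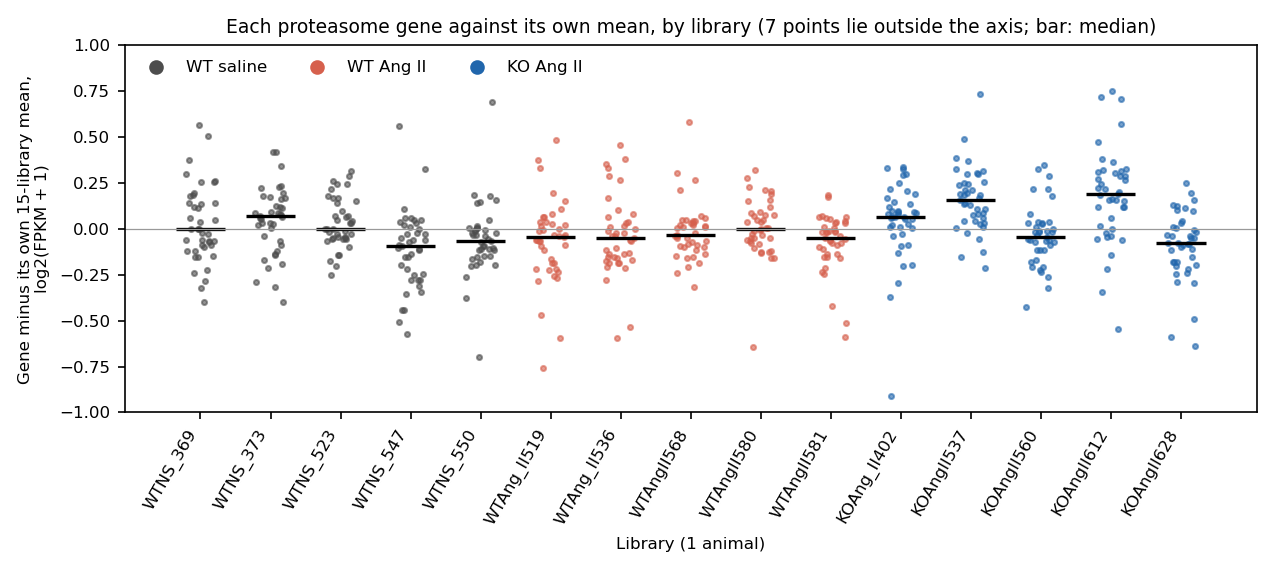
Each proteasome gene minus its own mean over 15 libraries, on the log2(FPKM + 1) scale, by library; points are genes, bars are medians, and 7 points lie outside the axis. The medians are 0.157 and 0.192 in KO Ang II animals KOAngII537 and KOAngII612 and -0.045 and -0.079 in animals KOAngII560 and KOAngII628.

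Transcripts were then examined one by one, because several genes were split between annotated models. Of the 136 transcripts 61 were annotated as protein coding, 55 as retained intron, 13 as processed transcripts and 7 as targets of nonsense-mediated decay. In 23 of the 41 tested genes coding models took at least 90% of the FPKM on average, but in 3 they took less than 50%: Psmc4 (23.3%), Psmd11 (32.1%) and Psma3 (34.1%). For Psmc4, models with retained intron sequence carried most of the level. Psmc4-204 has 11 exons like the coding Psmc4-201, 8 of them with both ends shared, and its second exon starts 498 bases upstream inside the first intron, at chr7:28049203-28049700. Psmc4-205 keeps the eighth intron, at chr7:28042508-28042649. For Psmd11, Psmd11-204 keeps the tenth of 13 introns, at chr11:80469928-80470382. The borders that these models leave unspliced are shown because they set the models apart. Capitals mark intron bases, which begin with GT or end with AG at the border, and lower case marks exon bases.
Psmc4-204, end of the retained part of intron 1 (GENCODE M21, minus strand): CTTTACCGTCTACAGgatgagattccagca
Psmc4-205, start of intron 8 (minus strand): aacgtcaatgtgaagGTTTAGGGCTCAGGA
Psmc4-205, end of intron 8 (minus strand): TCCTCCCTGTGCCAGgtaatcatggccaca
Psmd11-204, start of intron 10 (plus strand): ttttcccgagtccagGTGAGAACCTTCCTG
Psmd11-204, end of intron 10 (plus strand): TGCTTTTCCTTTTAGattgaacacatatct

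Psmd8 and Psmd2 were split between models that share nearly all of their bases, and the split differed from animal to animal. Psmd8-202 held 0.122 to 42.7 FPKM and was the leading model in most libraries. In WT saline animal WTNS_373 and WT Ang II animal WTAng_II536 it stood at 0.229 and 0.122 FPKM, and Psmd8-203 took its place at 24.9 and 14.8 FPKM. In KO Ang II animals KOAngII560 and KOAngII628 it stood at 0.505 and 0.286 FPKM, and Psmd8-201 took its place at 32.9 and 30.1 FPKM. All bases of Psmd8-202 and Psmd8-203 lie within Psmd8-201, which has 149 and 28 further bases. Psmd2-206, a model marked for nonsense-mediated decay that shares 98.2% of the bases of the coding Psmd2-201, stood at 16.8, 12.8, 29.2, 12.6, 27.9 and 19.8 FPKM in animals WTNS_373, WTNS_550, WTAng_II519, WTAng_II536, WTAngII568 and KOAng_II402 and at most 0.359 FPKM in the other 9. The sum per gene of Psmd2 was 45.7 to 67.1 FPKM in all 15 libraries. Psmd11-201 and Psmd11-204 share 1887 bases, and the coding share of Psmd11 was 9.0% to 66.4%, highest in KO Ang II animals KOAng_II402, KOAngII628 and KOAngII560. What sets these splits, a difference in splicing or the assignment of shared reads, cannot be told apart in these tables.

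**Figure D4:**
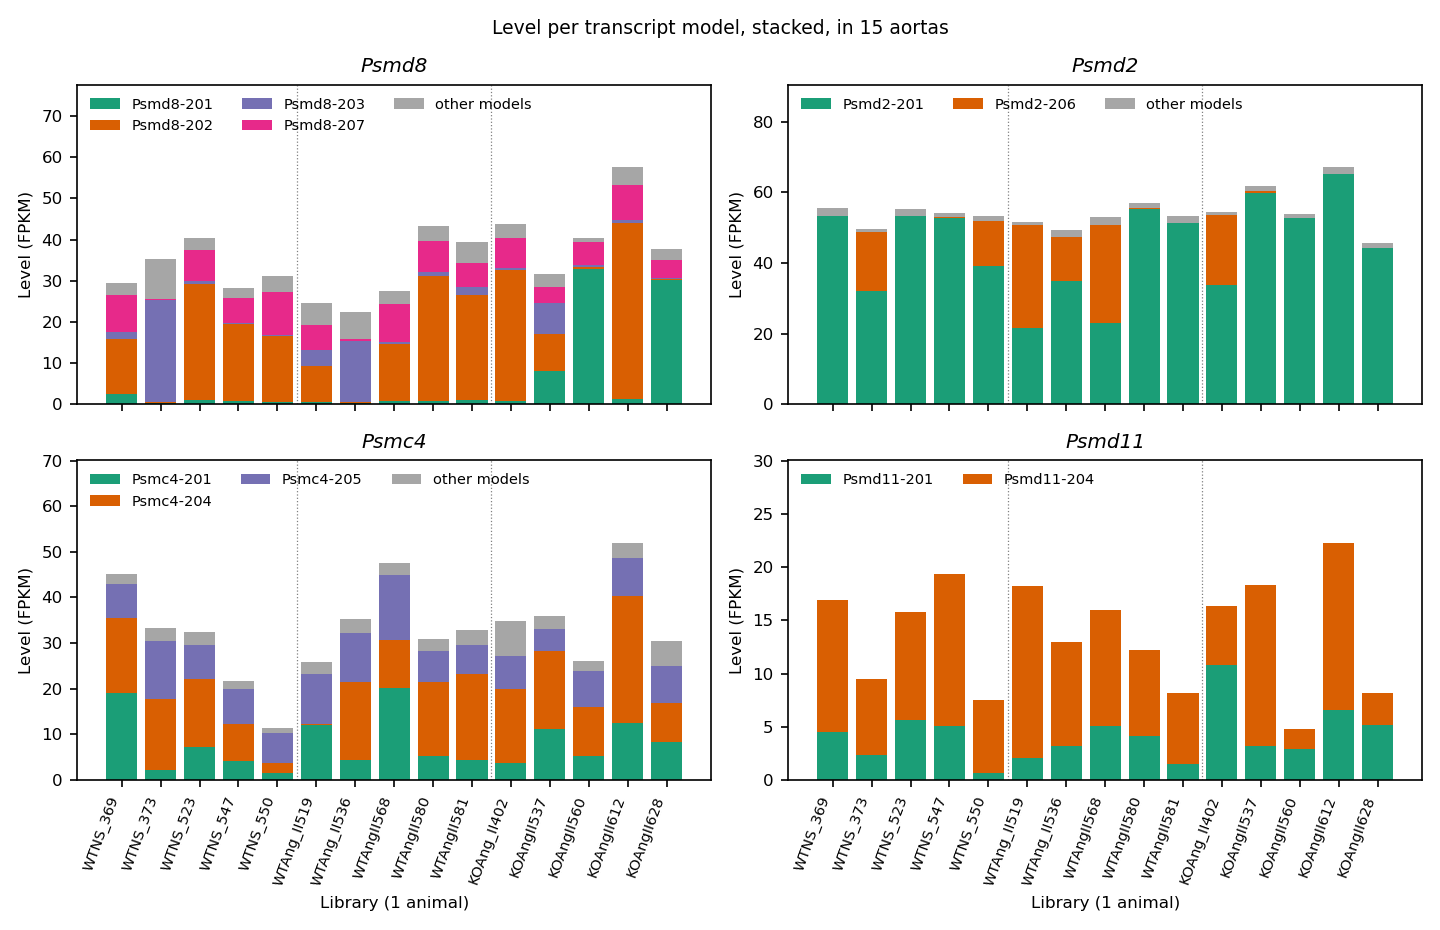
Level (FPKM) per transcript model, stacked, for Psmd8, Psmd2, Psmc4 and Psmd11 in 15 aortas; dotted lines part the groups, WT saline first and KO Ang II last. Psmd8-201 makes up most of the bar in KO Ang II animals KOAngII560 and KOAngII628, and Psmd2-206 appears in 6 animals of all 3 groups.

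No proteasome transcript passed the test among the 3 main groups. For WT Ang II against WT saline 0 of 104 tested transcripts passed (0.00964% of the 20755 tested) and 4 had an unadjusted p under 0.05 (5.32% of all). Between the Ang II groups 0 passed (0.00482% of all) and 10 had an unadjusted p under 0.05 (6.85% of all), 7 of them positive. For KO Ang II against WT saline 0 passed (0.0723% of all) and 2 had an unadjusted p under 0.05 (6.64% of all). The smallest p in the first 2 comparisons belonged to Psmd13-203, a retained-intron model of a lid subunit. It stood at 0.589, 1.02, 1.38, 1.07 and 1.18 FPKM in WT saline, 2.01, 3.06, 3.98, 1.75 and 1.74 FPKM in WT Ang II, and 0.154, 0.824, 0.448, 1.13 and 1.13 FPKM in KO Ang II. WT Ang II lay above both other groups without overlap, by 0.75 over WT saline (log2 scale, SE 0.22, limma adjusted p = 0.754). The difference of KO Ang II to WT Ang II was -1.01 (SE 0.22, limma adjusted p = 0.425). Of all 20755 transcripts 124 lay wholly higher in WT Ang II than in WT saline, against 1 of the 104. Wholly lower in KO Ang II than in WT Ang II were 120 of all transcripts, against 1 of the 104. Psmd13 shares 10.1% of its exon bases with Sirt3 on the other strand, and its sum per gene differed by -0.13 between the Ang II groups (SE 0.19, limma adjusted p = 0.856).

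The other transcripts with the smallest p came from Psmd8, Psmd14, Psmb4, Psmd4 and the single-transcript Psme2b. Psmd8-201 stood at 2.59, 0.258, 0.942, 0.795 and 0.562 FPKM in WT saline, 0.636, 0.385, 0.766, 0.881 and 0.993 FPKM in WT Ang II, and 0.824, 8.16, 32.9, 1.31 and 30.1 FPKM in KO Ang II. Its difference of 2.28 to WT Ang II (log2 scale, SE 0.71, limma adjusted p = 0.712) rested on animals KOAngII537, KOAngII560 and KOAngII628. Psmd14-201, the coding model, differed by 0.48 (SE 0.17, limma adjusted p = 0.712). All its KO Ang II values (22.2 to 33.2 FPKM) lay above those of WT Ang II (13.3 to 21.03 FPKM). The same held for 89 of all 20755 transcripts tested and 1 of the 104. Psmb4-204, a retained-intron model, differed by 0.78 with Ang II in WT (SE 0.34, limma adjusted p = 0.91), with WT saline at 0.533, 2.52, 0.418, 0.916 and 0.412 FPKM and WT Ang II at 2.44, 4.27, 2.97, 0.495 and 1.91 FPKM. Psmd4-205, another retained-intron model, differed by -0.74 between KO Ang II and WT saline (SE 0.36, limma adjusted p = 0.758), with 0.796 to 3.42 FPKM in the former and 2.68 to 7.12 FPKM in the latter.

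KO saline could be set beside the other groups for 5 proteasome transcripts, of which 4 had a mean of at least 1 FPKM: Psmc4-204, Psmd11-201, Psmd4-201 and Psme2-205. The basis on which the KO saline table was cut down is not given in the sources used here. If its transcripts were chosen for a difference between groups, an adjusted p over that table is too small. Of the 619 transcripts tested in all 4 groups 19.9% passed for KO Ang II against KO saline and 1.13% for KO saline against WT saline. Psmc4-204 shares 73.6% of its bases with the coding Psmc4-201 and was the only annotated Psmc4 model listed for KO saline. A difference in its level and the assignment of shared reads cannot be told apart here. Psmc4-204 stood at 3.31, 2.41, 2.63, 3.01 and 3.47 FPKM in KO saline animals KONS_387, KONS_412, KONS_555, KONS_608 and KONS_627, and at 16.3, 17.1, 10.7, 27.8 and 8.41 FPKM in KO Ang II. KO Ang II lay above KO saline without overlap, by 2.0 (log2 scale, SE 0.66, limma adjusted p = 0.0429), 1 of 4 transcripts that passed against that background of 19.9%. The share of the 619 transcripts without overlap in this comparison was not worked out, so nothing is concluded from the lack of overlap. The call was lost in 8 of 10 fits that left out 1 KO library, and held only without KO Ang II animal KOAngII560 or KOAngII628, with adjusted p from 0.042 to 0.0688 and a difference from 1.79 to 2.19. In WT the same transcript stood at 16.4, 15.7, 14.8, 8.24 and 2.21 FPKM with saline and 0.0427, 17.2, 10.7, 16.1 and 18.8 FPKM with Ang II, a difference of -0.17 (SE 0.66, limma adjusted p = 0.956). The test of the difference between these responses gave 2.18 (SE 0.94, limma adjusted p = 0.107). Psmd11-201, Psmd4-201 and Psme2-205 differed by 0.82, 0.91 and -0.62 between KO Ang II and KO saline, with limma adjusted p of 0.087, 0.0798 and 0.0696. None of the 4 passed the limma test for KO saline against WT saline, where Psmc4-204 had a difference of -1.43 (SE 0.66, limma adjusted p = 0.233).

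**Figure D5:**
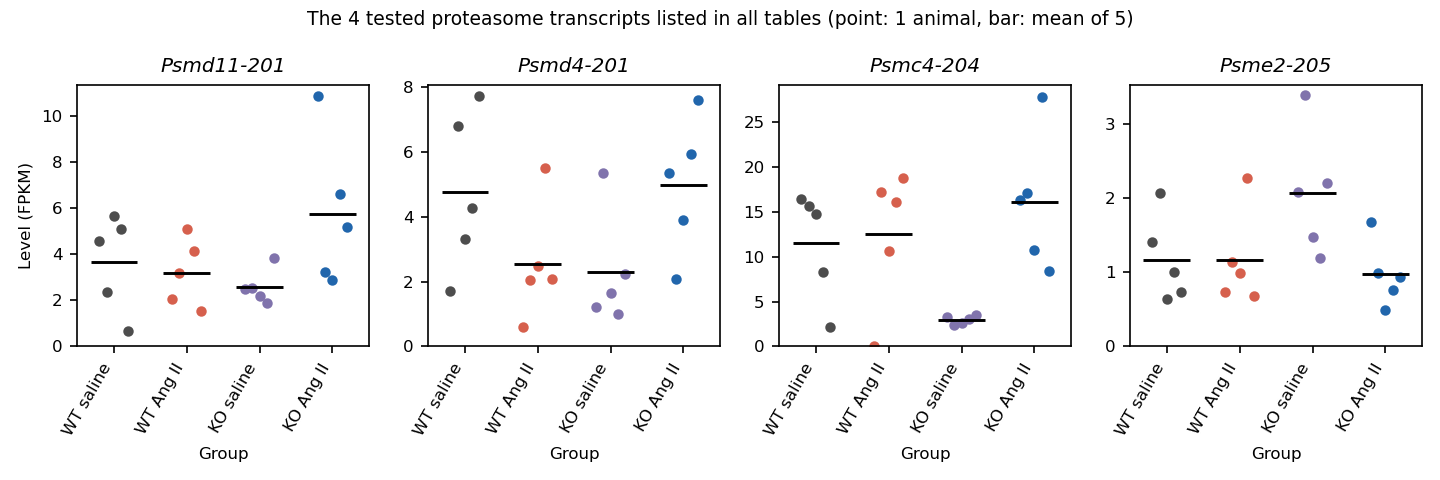
Level (FPKM) of the 4 tested proteasome transcripts that all tables list, in 4 groups of 5 aortas; points are animals and bars are means. KO saline lies between 2.41 and 3.47 FPKM for Psmc4-204, below every KO Ang II animal and inside the range of both WT groups.

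The genes that work with the proteasome were examined in lists, and none of their 48 tested members passed the limma test in any comparison, while 2, 4 and 2 had an unadjusted p under 0.05, in the order used above. The shares over all genes were 4.95%, 7.12% and 7.47%, and these counts lie near or below them. Differences were positive between the Ang II groups in 47.5% of all genes, and counts of positive differences in the lists carry no test. All 5 assembly chaperones of the 20S core had a positive difference between the Ang II groups (median 0.24), among them Psmg3 at 0.35 (SE 0.13, limma adjusted p = 0.674) and Pomp at 0.24 (SE 0.11, limma adjusted p = 0.674). Among 8 other 19S subunits and proteasome-bound enzymes, 7 were positive there (median 0.15). Uchl5, a deubiquitinase of the 19S cap, stood at 8.34, 7.01, 8.34, 7.34 and 7.08 FPKM in WT saline, 5.69, 6.82, 5.60, 6.57 and 5.92 FPKM in WT Ang II, and 7.51, 7.18, 7.77, 8.22 and 7.70 FPKM in KO Ang II. All WT Ang II animals lay below both other groups, by -0.28 from WT saline (SE 0.096, limma adjusted p = 0.898), and KO Ang II was higher by 0.29 (SE 0.096, limma adjusted p = 0.674). Of all genes tested, 1.03% and 0.885% had groups without overlap in these comparisons, in that order, and Uchl5 was named for its small p. Adrm1, the ubiquitin receptor that binds Uchl5, differed by -0.20 with Ang II in WT (SE 0.11, limma adjusted p = 0.938) and by 0.057 between the Ang II groups (SE 0.11).

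Of the genes around Nfe2l1, the transcription factor of proteasome genes, 3 of 8 had a positive difference between the Ang II groups (median -0.11). Nfe2l1 itself differed by -0.18 (SE 0.37, limma adjusted p = 0.903). Its small Maf partners Maff and Mafk differed by -0.70 (SE 0.30) and -0.48 (SE 0.22), with a limma adjusted p of 0.674 for each. Maff stood at 19.1, 16.8, 16.8, 11.0 and 27.0 FPKM in WT Ang II and 10.01, 7.428, 9.124, 24.96 and 6.649 FPKM in KO Ang II. KO Ang II animal KOAngII612 was the highest of its group in Maff and also in the median of the proteasome genes. Other animals went the other way. KOAngII537, next in that median at 0.157, had Maff at 7.428 FPKM. WTAngII581 had the highest Maff of the 15 libraries and a median of -0.0475. A link between Maff and the proteasome genes was not tested. Genes that deliver ubiquitinated proteins were positive in 10 of 10 between the Ang II groups (median 0.19), though none of the 10 had an unadjusted p under 0.05 there, with Nploc4 at 0.20 (SE 0.10, limma adjusted p = 0.674), and Ubqln1 differed by -0.24 with Ang II in WT (SE 0.11, limma adjusted p = 0.938). Of the 6 ubiquitin and ubiquitin-activating genes 5 were positive between the Ang II groups (median 0.062). The 9 tested partners in antigen presentation by MHC class I and interferon response were positive in 9 of 9 with Ang II in WT (median 0.21) and 9 of 9 for KO Ang II against WT saline (median 0.15). B2m differed by 0.29 in the former (SE 0.14, limma adjusted p = 0.938) and H2-K1 by 0.39 in the latter (SE 0.17, limma adjusted p = 0.654). Beside these, all 8 macrophage markers had a positive difference in both comparisons (medians 0.56 and 0.36) and none passed the limma test. Their sum was 226.9 to 331.3 FPKM in WT saline, 335.8 to 468.7 FPKM in WT Ang II and 239.4 to 513.7 FPKM in KO Ang II, which overlapped with WT saline. Their part in these values was not tested. Psmb8 and Psmb9 differed by 0.35 (SE 0.20) and 0.50 (SE 0.25) with Ang II in WT, with a limma adjusted p of 0.938 for each.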

How the data were processed

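The deposited tables hold FPKM per transcript, as the authors computed it. Which aligner and counting program were used is not given in sources used here. Per the submitters' processing notes, the tools included fastp, FastQC and bcl2fastq, and the genome was mm10. The labels' protocols give 1 µg of total RNA as input. Gene names, transcript models and positions came from GENCODE M21 (GRCm38). FPKM of transcripts listed in both tables were summed per gene. Genes or transcripts whose mean over 15 libraries reached 1 FPKM were tested on log2(FPKM + 1) with limma 3.58.1 in R 4.3.3 (trend and robust, 1 model, Benjamini-Hochberg over all features, threshold 0.05). Fold changes of low genes are understated on this scale. The test was tried on simulated data. Depth, 59.0 to 74.9 megareads, was worked out from the step of the values: 98.0% to 99.1% of values below 50 reads lay within 0.05 of a whole read. All p-values measure the spread between animals.

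Members, lists and the rule for named genes were chosen with earlier results of these data known. The rule takes the highest and lowest gene of each class, the catalytic genes, and per comparison the 3 smallest p and the largest difference in each direction, and 2 genes per partner list and 3 transcripts by p; Psmd8 as a gene and the models of Psmd2, Psmd8, Psmc4 and Psmd11 were chosen after their values were seen. Alternatives were another pseudocount, other filters, other transcript sets, other scalings, sample weights, smaller fits, each library left out, the intestinal split, marker covariates and, chosen after seeing the data, voom on recovered reads. Promoters are RefSeq's; protein sequences were not used here.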

Additional observations from a re-analysis of the deposited data

Results flagged for a closer look

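In groups of 5, a library was singled out where it stood apart from the other 4 by most of the group's range. This was run for 19 genes and 14 transcripts, 99 groups in all, and 13 had such a library. Chance flags about 1 in 20 groups of normally distributed values. Some of these genes and transcripts were chosen by p or after their values were seen. The count of 13 therefore cannot be set against that rate. Among genes, Psme2b stood at 28.4 FPKM in WT saline animal WTNS_373 (next 8.67) and 6.75 FPKM in WT Ang II animal WTAngII568 (next 1.58). WT Ang II animal WTAng_II536 was low in Psme4 at 18.3 FPKM (next 21.2) and high in Psme1 at 37.3 FPKM (next 30.0). Psmb2 was low in KO Ang II animal KOAngII560 at 43.8 FPKM (next 53.0), and Psmf1 was high in WT Ang II animal WTAngII581 at 7.33 FPKM (next 6.36).

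Among transcripts, Psmd8-203 stood apart in each group: at 24.9 FPKM in WT saline animal WTNS_373, 14.8 FPKM in WT Ang II animal WTAng_II536 and 7.52 FPKM in KO Ang II animal KOAngII537. Psmd2-206 stood at 19.8 FPKM in KO Ang II animal KOAng_II402 (next 0.359) and Psmb4-204 at 2.52 FPKM in WT saline animal WTNS_373 (next 0.916). In WT Ang II animal WTAng_II519, Psmd14-201 was low at 13.3 FPKM (next 19.4) and Psmf1-206 was at 2.65 FPKM with the other 4 at 0.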

How the results depend on the processing

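The count of proteasome genes or transcripts that passed was 0 under each alternative run for the 3 main comparisons. With each library left out in turn, the median difference ran from -0.057 to -0.014 for WT Ang II against WT saline, from 0.056 to 0.13 between the Ang II groups and from 0.0068 to 0.089 for KO Ang II against WT saline; the last was lowest without KO Ang II animal KOAngII612. Of 1460 values for single named genes under the alternatives, 1454 moved by less than the SD within a group and 6 moved by more, and none passed the test. Psmb6, Psmb10 and Psmc3 differed by 0.067, 0.41 and 0.35 between the Ang II groups in libraries with intestinal transcripts only. With marker covariates, Psmc3 differed by -0.35 with Ang II in WT and by 0.36 between the Ang II groups, and Psmd7 by 0.097; the cause was not tested. For Psmc4-204, KO Ang II against KO saline, the difference was 2.29 (adjusted p = 0.0646) with a pseudocount of 0.1 FPKM and 1.79 to 2.19 without 1 library each. Over all genes, the count that passed ran from 0 to 2 for WT Ang II against WT saline, from 0 to 6 between the Ang II groups and from 0 to 18 for KO Ang II against WT saline (11 as reported, 14 with voom on recovered reads). Presence of intestinal transcripts and the contrast of KO Ang II with WT saline cannot be told apart, so that contrast has no value within the split. No paired analysis was possible because the groups compared share no replicate numbers.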
